A study of Mus musculus with 2 samples.

Results

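Lhx2 encodes a LIM-homeodomain transcription factor of the early eye field. Its transcript had 7 sites listed for N6-methyladenosine (m6A) that were read in both direct RNA libraries of day 6 mouse retinal organoids, out of 5221 such sites in the whole series. A site is a listed transcript position with at least 20 reads in its library. Whether a position had to be called modified to be listed is not stated. The members were all positions that the deposited plus tables assign to Lhx2, matched between libraries on transcript version and exact end position. Lhx2 had 7 listed positions in replicate 1, of 26441, and the same 7 in replicate 2, of 50099. No Lhx2 position lay under the minimum of 20 reads in either library.

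The samples were 2 libraries of poly(A) RNA, and together they form 1 group with no second condition. Both came from organoids of the Rx:GFP line with the genotype WT, a mouse line whose green fluorescent reporter follows Rx (Rax), grown in GMEM with KSR, NEAA, β-ME and sodium pyruvate and given AGN at 0.1 µM for 6 days. Each library was sequenced on its own flow cell for about 48 h, and both carry one batch label. Nothing states that the replicates came from separate cultures, so the spread between them may be technical. With 2 libraries an exact paired permutation test cannot give less than p = 0.5, so no p-value is given and each difference is set against the spread between replicates.

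The m6A mark is placed on messenger RNA by a nuclear methyltransferase complex with METTL3 as its catalytic subunit, at adenosines within a short consensus sequence, and the study as titled concerns this activity in retinal development. Reader proteins bind the mark and affect the stability, translation and processing of the transcript. Lhx2 is required for the optic vesicle to progress to an optic cup and works with LIM-domain binding cofactors such as Ldb1. In direct RNA sequencing the molecule itself passes through the pore, from its poly(A) end, and a modified base changes the ionic current.

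The 5 bases at each site are given because every value is read against sites of the same 5 bases. They are written 5′ to 3′ in DNA letters as deposited. The sequence ggAca was listed at positions 1495, 1854 and 2017 of the transcript. The sequence ggAct was listed at positions 1414 and 2483, and agAct at positions 2122 and 2542. The capital marks the central A, the base that carries m6A in this consensus, and which base the listed position marks is not stated. GGACC, the remaining one of the 4 motifs in the tables, made up 22.3% of shared sites of other genes and was not listed for Lhx2. It was likewise missing from 16 of 69 genes of similar coverage with 5 or more shared sites (23.2%).

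All 7 positions lay on 1 transcript, ENSMUST00000000253.5, between positions 1414 and 2542, a span of 1128 nt. Neighbouring sites were 59 to 361 nt apart. The gene is on chromosome 2, from 38229293 to 38259745 as deposited. The submitters' processing notes name mm10, whereas the start of Lhx2 in RefSeq for GRCm38.p6, the same assembly, lies 109978 bases further on. The build of the deposited coordinates is therefore not settled. Separately, the transcript sequence was not used here, and the sites were not placed in exons, coding sequence or untranslated regions.

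The fraction modified is the deposited share, from 0 to 1, of reads scored as modified at a position. Coverage is given beside each fraction, and the number of reads behind the fraction itself is not known. Its values across Lhx2 ran from near unmodified to near complete. The highest site was the GGACA at position 1854, with 0.841 in replicate 1, where 86 reads covered it, and 0.956 in replicate 2, where 220 did (mean 0.899 ± 0.0813, SD, n = 2). It was followed by the GGACA at position 1495, with 0.744 at a coverage of 66 and 0.823 at 187 (0.783 ± 0.0554, SD, n = 2). These were the only 2 Lhx2 sites with a fraction of at least 0.5 in both replicates, a level reached by 36.0% of all shared sites.

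The other 5 sites had lower fractions in both libraries. The GGACT at position 2483 had 0.316 at a coverage of 110 and 0.386 at 259 (0.351 ± 0.0498, SD, n = 2). The third GGACA, at position 2017, had 0.237 at a coverage of 99 and 0.174 at 230 (0.205 ± 0.0450, SD, n = 2). Its fraction was thus far under that of the other two sites with the same 5 bases. The AGACT at position 2542 had 0.169 at a coverage of 111 and 0.151 at 261 (0.160 ± 0.0124, SD, n = 2).

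The lowest values belonged to one AGACT and one GGACT. At position 2122 the fraction was 0.0714 at a coverage of 103 and 0.0650 at 237 (0.0682 ± 0.00453, SD, n = 2). At position 1414 it was 0.0476 at a coverage of 65 and 0.0759 at 182 (0.0617 ± 0.0200, SD, n = 2). Both stayed under 0.1 in both replicates, as did 9.69% of all shared sites. From the highest mean to the lowest, the order was 1854, 1495, 2483, 2017, 2542, 2122 and 1414. The values of the 2 libraries did not overlap between any neighbours in this order except 2122 and 1414, which traded places between replicates. The separation of 2017 from 2542 was narrow, since the lower value of the former was 0.174 and the higher value of the latter 0.169.

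**Figure D1:**
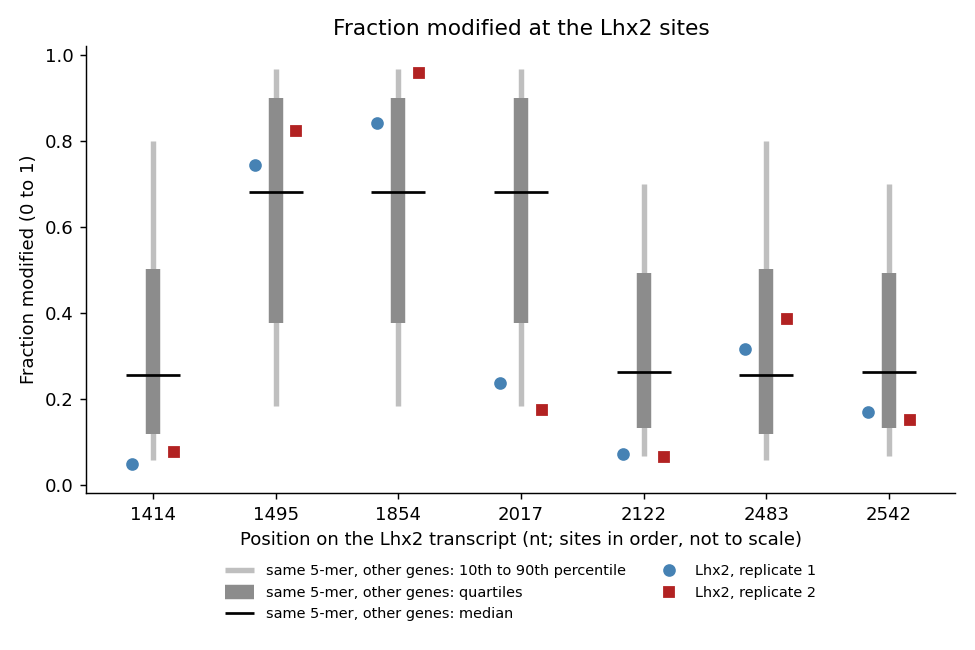
Fraction modified (y axis, 0 to 1) at each Lhx2 site, in order of position on the transcript (x axis, nt), with a point for each replicate. Grey bars give the 10th to 90th percentile and the quartiles, and black lines the median, of shared sites of the same 5-mer in other genes. Position 2017 lies far under its median in both replicates, while 1854 lies above it.

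The listed fraction differs by 5-mer across the whole series, so each Lhx2 site was set against shared sites of other genes with the same 5 bases. The comparison is a percentile, the share of those sites with a lower mean over both libraries (a tie counts 0.5), and is a description with no test. Lhx2 had 3 sites above the median of its 5-mer in both replicates, against 45.1% of all shared sites, and 4 below it in both, against 43.9%. As a set, the Lhx2 sites were therefore split much as all sites were.

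Among 1998 GGACA sites, whose median was 0.679 (quartiles 0.375 and 0.899), position 1854 stood at percentile 75.0. Replicate 1 placed it at 65.1 and replicate 2 at 87.1. Position 1495 stood at percentile 59.6. Position 2017 stood at 11.4, with 14.0 and 9.66 in the single replicates. From the median GGACA site of the same library, its fraction differed by -0.44 in replicate 1 and -0.49 in replicate 2, which is the farthest that any Lhx2 site lay from its 5-mer's median.

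Among 1240 GGACT sites with a median of 0.256, position 2483 stood at percentile 62.5 and position 1414 at 11.0. Among 814 AGACT sites with a median of 0.261, position 2542 stood at 31.9 and position 2122 at 10.6. Each of the 3 motifs present thus had one site close to the 11th percentile of its kind by the mean over both libraries. Without a minimum of reads position 1414 stood at 17.2 and position 2122 at 14.8. In the single replicates position 1414 stood at 8.15 and 16.0 and position 2122 at 14.1 and 10.1. When only sites with coverage within 2-fold of the Lhx2 site in each library were used, 133 to 575 per site, these 3 stood at 11.1 (position 1414), 12.6 (position 2017) and 9.46 (position 2122).

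Sites with the same 5 bases on this one transcript could then be compared with each other. Reads of one molecule cover several sites, so the sites are not independent of each other. Position 1854 exceeded position 2017, 163 nt downstream, by 0.604 in replicate 1 and 0.783 in replicate 2, a mean of 0.693 ± 0.126 (SD, n = 2). Position 1495 exceeded position 2017 by 0.507 and 0.649 (0.578 ± 0.100, SD, n = 2). Both differences were several times the spread between replicates. Positions 1495 and 1854 differed by less, with 1854 higher by 0.0971 and 0.134 (0.115 ± 0.0259, SD, n = 2).

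To place these differences, all pairs of shared GGACA sites on one transcript were taken from other genes, 1047 pairs on 467 transcripts, and their median absolute difference was 0.277. A difference as large as that between positions 1854 and 2017 was found in 112 of them (10.7%). That pair is the largest of the Lhx2 GGACA pairs, while the reference holds all pairs and not the largest of each transcript. Its share is therefore low in part by selection. A difference as large as that between positions 1495 and 2017 was found in 18.6% of the pairs, and one as large as that between positions 1495 and 1854 in 75.0%. Of 292 GGACA pairs within 200 nt of each other, 28 differed as much as positions 1854 and 2017 (9.59%). The GGACT sites at positions 1414 and 2483, 1069 nt apart, differed by 0.268 and 0.310, with the downstream site higher (0.289 ± 0.0298, SD, n = 2), and 41.6% of 469 GGACT pairs differed at least as much. The AGACT sites at positions 2122 and 2542 differed by 0.0973 and 0.0862, again with the downstream site higher, and 75.3% of 170 AGACT pairs differed at least as much.

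The replicates ranked the Lhx2 sites alike. Pearson's r was 0.994 and Spearman's rho 0.964 over 7 sites, which share a transcript, and Pearson's r was 0.976 over 1124 sites of other genes with coverage within 2-fold of the median Lhx2 site. The fraction was higher in replicate 2 at 4 Lhx2 sites and lower at 3, and over all shared sites it was higher in replicate 2 at 45.8%. The absolute difference had a median of 0.0637, against 0.0390 at those 1124 sites.

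The replicates differed most at the highest site. At position 1854 the fraction was 0.115 higher in replicate 2, the only Lhx2 site with a difference over 0.1, which 26.3% of all shared sites had. Of 1202 sites of other genes with coverage within 2-fold, 89.8% had a smaller difference. None of the Lhx2 fractions in either replicate was a whole multiple of 1 over its coverage (to the 4 decimals given), so how many reads stand behind a fraction is not known.

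Coverage was deepest toward the 3′ end, where direct RNA reads start. In replicate 1 it was 65 reads at position 1414 and 111 at position 2542. In replicate 2 it was 182 and 261 reads at the same positions. It did not decrease from any site to the next one downstream in either library. The first site had 0.586 of the coverage of the last in replicate 1 and 0.697 in replicate 2. Over 176 other transcripts whose shared sites span 1000 to 1500 nt the median of this ratio was 0.743 and 0.800, and Lhx2 stood at percentile 13.1 and 21.0.

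Coverage of Lhx2 was also above the median gain in depth of replicate 2. Replicate 2 had 2.30 to 2.83 times the reads of replicate 1 at the Lhx2 sites, with a median of 2.35. The median over all shared sites was 2, with quartiles of 1.66 and 2.40. The Lhx2 median lay at percentile 72.9, within the quartile range, and in bulk libraries more molecules per cell and more cells cannot be told apart.

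**Figure D2:**
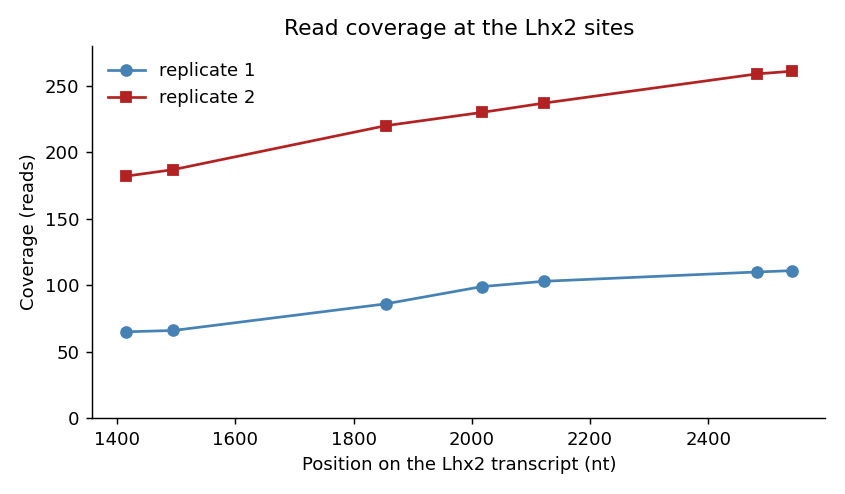
Coverage in reads (y axis, from 0) against position on the Lhx2 transcript in nt (x axis), with a line for each replicate. Both lines are highest at position 2542, with 111 and 261 reads.

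At the level of the gene, the mean fraction over the 7 sites was 0.347 in replicate 1 and 0.376 in replicate 2 (0.361 ± 0.0207, SD, n = 2). It was compared with 184 genes that had 3 or more shared sites and a mean coverage within 2-fold of Lhx2 in each library (91.4 and 225 reads). Their median was 0.415 (quartiles 0.329 and 0.541), and Lhx2 stood at percentile 34.2, with 27.7 and 40.2 in the single replicates. Taking the median of each site's 5-mer, the 7 sites would average 0.432, against a median of 0.398 for the 184 genes. After subtraction of the 5-mer medians, the Lhx2 mean was -0.070 ± 0.0277 (SD, n = 2) and stood at percentile 26.6, with 23.9 and 31.0 in the single replicates. This value rests largely on position 2017: without that site, left out after its value was seen, the mean was -0.0047 ± 0.0389 (SD, n = 2) and stood at percentile 38.6. Leaving out the site farthest below its median must raise the mean, and the 184 genes kept all their sites. These percentiles are thus not like for like.

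Lhx2 had more sites than most of these genes, whose median was 4 and maximum 17. At least 7 sites were found in 28 of the 184 genes (15.2%), and in 103 of all 1886 other named genes with a shared site (5.46%), most of which were covered less than Lhx2. Its sites also spanned a wide range, 0.837 between the highest and lowest mean, against a median range of 0.699 over the 184 genes. A range grows with the number of sites. Among the 9 genes of like coverage that also had 7 sites, the median range was 0.813, and 4 had a range at least as wide as that of Lhx2.

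**Figure D3:**
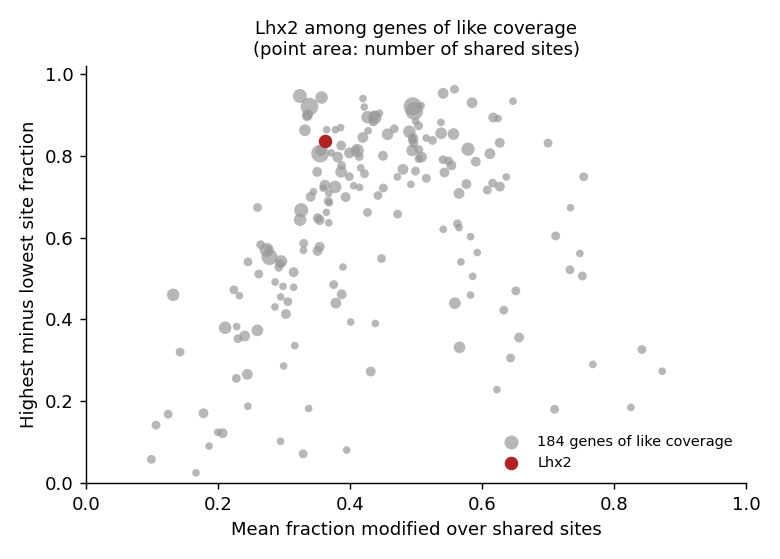
Mean fraction modified over shared sites (x axis) against the highest minus the lowest site fraction (y axis) for 184 genes of like coverage (grey) and Lhx2 (red), with point area for the number of shared sites. Lhx2, at 0.361 and 0.837, lies among other genes of wide range.

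The genes with the most similar spread of fractions were sought among 69 genes of like coverage with 5 or more shared sites. The measure was the Euclidean distance between the minimum, quartiles and maximum of the site means over 2 libraries, and its median over those genes was 0.361. The nearest were Serbp1, which encodes an mRNA-binding protein (distance 0.0769), Id2, an inhibitor of basic helix-loop-helix factors (0.0770), and Ube2v1, a ubiquitin-conjugating enzyme variant (0.106). The likeness is in the distribution alone. Id2 had 16 shared sites and no GGACA, and Serbp1 had 16 sites of which 4 were GGACA. Their sites lay on 2 and 3 transcripts, so one stretch of sequence can be listed more than once. Ube2v1 was the only one of these genes with a single transcript and 7 sites, 2 of them GGACA at 0.830 and 0.825, and no GGACA site as low as position 2017 of Lhx2.

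**Figure D4:**
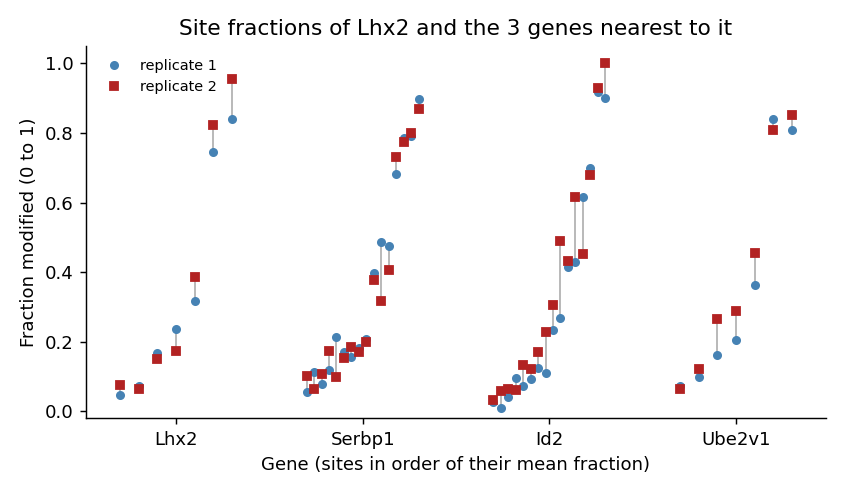
Fraction modified (y axis, 0 to 1) at every shared site of Lhx2, Serbp1, Id2 and Ube2v1 (x axis, sites in order of their mean), with a point for each replicate joined by a grey line. Each gene has sites under 0.1 and above 0.8.

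Of 14 other eye-field and optic vesicle genes, 9 had a listed position in both libraries. Among these 9, Hes1 alone reached a higher coverage than Lhx2, with 153 and 271 reads at its deepest position against 111 and 261. The deepest position had 61 and 80 reads in Rax, 83 and 186 in Six6 and 15 and 32 in Six3. Of the 14 genes, 6 had a site in both libraries, with 26 shared sites. Of these sites, 13 lay above and 12 below the median of their 5-mer in both replicates.

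The order of Lhx2 among these genes depends on whether the motif is taken into account. The mean fraction as listed was 0.354 ± 0.00355 in the homeobox gene Six6, 0.351 ± 0.0195 in the Notch effector Hes1 and 0.377 ± 0.0158 in the neural progenitor factor Sox2 (each SD, n = 2), against 0.361 ± 0.0207 in Lhx2. It was 0.607 ± 0.0143 in the eye-field gene Rax and 0.612 ± 0.0287 in the secreted Wnt modulator Sfrp2. After subtraction of the 5-mer medians, the mean was -0.070 ± 0.0277 in Lhx2 and -0.058 ± 0.0342 in Sfrp2, which differ by less than the spread between replicates. It was 0.115 ± 0.0144 in Rax, 0.110 ± 0.00316 in Six6, 0.0301 ± 0.0206 in Sox2 and 0.0257 ± 0.0185 in Hes1, each above Lhx2 by more than that spread. The spread between replicates does not include the spread between sites of one gene, which in Lhx2 ran from -0.465 at position 2017 to 0.228 at position 1854. Whether the genes differ beyond the spread of their sites was not tested. Without position 2017 (-0.0047 ± 0.0389), Lhx2 differed from Sox2 and Hes1 by less than the spread between replicates, and from Rax and Six6 still by more. This comparison is not like for like: the other genes kept all their sites, and leaving out the Lhx2 site farthest below its median must raise its mean. Nr2e1, with 1 shared site, had -0.21 ± 0.0750.

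Of 21 LIM-homeodomain and LIM cofactor genes, 6 were listed in replicate 1 and 8 in replicate 2, and no listed position exceeded 29 and 71 reads. A shared site was found in 5 of them (12 sites). None of the other LIM-homeodomain genes of the list, Lhx9 included, had a listed position in either library. Ldb1, the cofactor that bridges LIM proteins, had 1 shared site with a fraction of 0.141 ± 0.0233, and Lmo4, a LIM-only protein that competes for Ldb1, had 3 between 0.0416 and 0.868. Ssbp3, which binds Ldb1 and stabilises it, had 6 with a mean of 0.555 ± 0.00152, and Ssbp2 had 1 at 0.765 in both replicates (each SD, n = 2, where given). Lmo1 had 1, at 0.0588 in replicate 1 and 0.143 in replicate 2. A gene without a listed position may be unread, unmodified or without one of the 4 motifs, and these cannot be told apart.

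The label of the tissue was read against marker genes in the same way. The 6 early retinal genes considered, Lhx2 among them, were listed in each library, and 3 of them (Lhx2, Rax and Six6) had a shared site. Pax6 had up to 7 and 17 reads, Otx2 14 and 40 and Six3 15 and 32 reads, with no shared site. None of 6 pluripotency genes and none of 5 mesoderm and endoderm genes was listed. Of 4 neuronal genes Tubb3 alone was listed, with up to 11 and 17 reads, and Elavl3, Dcx and Stmn2 were not. Of 4 pigment epithelium genes Pmel was listed with up to 6 and 14 reads and Mitf in replicate 2 alone with up to 13, while Tyr and Mlana were not listed. The telencephalic gene Emx2 was listed with up to 8 and 13 reads, and the hypothalamic gene Nkx2-1 in replicate 2 alone with up to 5. The part of other cell types in the Lhx2 values was not tested.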

How the data were processed

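Direct RNA (nanopore, RNA002 kit) sequencing of 2 libraries of 1 group was analysed from the plus table of each library; the minus tables were not used here. Coverage was deposited as the count of reads at a transcript position and is never under 5. The fraction modified was deposited by the authors as a fraction from 0 to 1 with its denominator unstated, so no modified read counts and no intervals were derived. The base caller, aligner and modification caller are not given in the sources used here; the build is mm10 per the submitters' processing notes. Nothing states whether a position had to be called modified to be listed.

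Sites had 20 or more reads and were matched on transcript version and end position. Median coverage over all listed positions was 10 and 12 reads. Medians of a 5-mer were taken over all sites of a library, and percentiles over shared sites of other genes. Named genes were Lhx2, the 3 nearest genes of like coverage by the distance given, and the eye-field and LIM lists, of which some genes are not reported here. The members and lists were chosen with earlier results of these data known. The percentile calculation was tested on simulated data. Python 3.11.15, pandas 2.3.3, numpy 2.4.6 and scipy 1.17.1 were used. Alternatives were minimums of 10, 50 and no reads, matching within 5 nt, coverage within 1.5-fold, 1 transcript per gene, and leaving out each replicate.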

Additional observations from a re-analysis of the deposited data

How the results depend on the processing

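Every Lhx2 position had at least 65 reads, so minimums of 10, 50 or no reads left the 7 sites and their fractions as they were. That follows from the depth and shows nothing about stability. The count above the 5-mer median in both replicates stayed at 3 under each minimum, and matching within 5 nt also gave 7 sites. What the minimum changes is the set of sites compared with. Without one, position 1414 stood at percentile 17.2 of its 5-mer in place of 11.0 and position 2122 at 14.8 in place of 10.6; the cause was not tested. Leaving out a replicate placed position 2122 between 10.1 and 14.1 and position 1414 between 8.15 and 16.0. The gene's percentile of mean fraction stayed between 27.7 and 40.2, and after subtraction of the 5-mer medians between 23.4 and 31.0, over the other minimums, coverage within 1.5-fold, 1 transcript per gene and leaving out each replicate. Leaving out position 2017, an alternative added after seeing the data, gave 38.6 for the latter, with all sites of the other genes kept. The comparison of same-5-mer pairs without each replicate was added after seeing the data. No paired analysis of conditions was possible because there is only 1 group.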

Other observations

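No position of the Lhx2 transcript before 1414 was listed in either library, although 65 and 182 reads still covered position 1414 and positions were listed from 5 reads up. Among 163 other transcripts with 3 or more shared sites and a last shared site between positions 2000 and 3000, the first listed position had a median of 397, and it lay at or after 1414 in 10 (6.13%). The transcript sequence was not used here, so whether the upstream stretch holds any of the 4 motifs, and whether such motifs were examined and not listed, is not known.

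The ratio of first-site to last-site coverage was higher in replicate 2 than in replicate 1 for Lhx2, and likewise for 118 of the 176 other transcripts with shared sites spanning 1000 to 1500 nt (67.0%).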
